A study of Rattus norvegicus with 12 samples.

Results

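The 9 genes described here encode cytosolic chaperones of skeletal muscle: the small heat shock proteins Hspb1, Hspb2, Hspb3, Hspb6, Hspb7, Hspb8 and Cryab, with the HSP70 family member Hspa8 and the HSP90 family member Hsp90aa1. They were chosen by gene name, and all 9 names were found among the 30560 genes of the deposited count table. RNA was sequenced from the red gastrocnemius of the calf in 6 wild-type male Wistar Kyoto rats aged 9 weeks, with no treatment named in the labels. For each rat there was 1 library of mitochondria and 1 of whole muscle, so each group had 6 libraries. Mitochondria were captured from fresh tissue with an antibody and then exposed to RNase A and proteinase K, which digest RNA and protein. The whole-muscle part was snap frozen. Both kinds of RNA went through the same ribosomal RNA depletion kit, with an input of 10 ng for mitochondria and 50 ng for whole muscle. The study asked which nuclear-encoded RNAs, noncoding ones above all, are found in muscle mitochondria, and these chaperone mRNAs are nuclear transcripts of proteins that mostly work in the cytosol.

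Small heat shock proteins form oligomers that hold unfolding proteins without using ATP and pass them to the HSP70 machine. HSP70 and HSP90 proteins then fold, mature or hand over their clients in ATP-driven cycles set by co-chaperones. In striated muscle these proteins are known for guarding titin, desmin, filamin and actin filaments against the strain of contraction, and many of their genes are driven by heat shock factor 1 through heat shock elements in the promoter.

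Because many such genes are driven through that element, promoters of members were searched for it, and 3 of those with a match are shown. The window ran from 250 bases before to 50 bases after the annotated start, taken from RefSeq on the build GRCr8. Of the 9 members 6 had a promoter sequence in the table used, namely Hspb1, Hspb3, Hspb6, Hspb7, Hspb8 and Hspa8. The motif searched was 2 inverted units of the heat shock element, GAANNTTC or TTCNNGAA, each of which reads the same on both strands, and overlapping matches were counted. It was found in 4 of the 6, against 15.9% of all 33469 promoters. Capitals mark the matches in 3 of them, the Hspb1 window at chr12:26432252-26432551 on the minus strand, the Hspb6 window at chr1:94934122-94934421 on the plus strand and the Hspa8 window at chr8:50080264-50080563 on the plus strand. Each is written 5′ to 3′ along its gene.
Hspb1: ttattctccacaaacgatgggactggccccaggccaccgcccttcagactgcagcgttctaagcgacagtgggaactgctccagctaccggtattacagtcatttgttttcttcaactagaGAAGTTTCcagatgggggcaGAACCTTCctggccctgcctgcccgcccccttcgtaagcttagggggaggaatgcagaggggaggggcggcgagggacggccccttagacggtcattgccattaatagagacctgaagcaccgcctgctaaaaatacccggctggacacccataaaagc
Hspb6: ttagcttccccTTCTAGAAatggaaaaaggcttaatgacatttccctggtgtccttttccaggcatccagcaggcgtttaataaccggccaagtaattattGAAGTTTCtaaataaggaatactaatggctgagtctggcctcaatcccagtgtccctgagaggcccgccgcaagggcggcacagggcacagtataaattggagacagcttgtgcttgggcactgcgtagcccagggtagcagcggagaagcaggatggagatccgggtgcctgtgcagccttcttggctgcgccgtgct
Hspa8: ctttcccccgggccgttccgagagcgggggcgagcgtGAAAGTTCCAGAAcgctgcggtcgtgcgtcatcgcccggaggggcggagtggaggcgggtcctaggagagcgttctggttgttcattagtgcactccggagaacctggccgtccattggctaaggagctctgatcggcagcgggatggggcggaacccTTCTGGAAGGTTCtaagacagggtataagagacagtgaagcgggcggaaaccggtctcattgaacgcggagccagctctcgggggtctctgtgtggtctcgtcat
Hspb1 held 2 matches, which began at -129 and -109 relative to the start, and Hspb6 held 2, at -239 and -149. Hspa8 held 4, which overlapped in pairs at -213 and -208 and at -55 and -50. Hspb8 held 1 match, at -23. The windows of Hspb3 and Hspb7 held no match to these letters. A match describes the sequence and was not tested for binding.

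The libraries differed widely in depth. Mitochondria libraries held 720111 to 1785865 counts and whole-muscle libraries 24309444 to 32055355. The 9 members together had 161 to 279 counts in a mitochondria library, 0.0131% to 0.0250% of its total. In a whole-muscle library they had 55131 to 87346 counts, 0.186% to 0.272%. Despite their lower depth, mitochondria libraries had a count for more genes, 27803 to 28708 against 16931 to 17776 in whole muscle. Genes of the mitochondrial genome took 12.9% to 51.5% of counts in mitochondria and 26.4% to 35.9% in whole muscle. Markers of muscle fibres were far lower in mitochondria. The 9 fast-fibre markers with a row summed to 376 to 693 CPM (share of all gene counts in a library times 1000000) there, against 81610 to 134601 CPM in whole muscle, and the 8 slow-fibre markers to 218 to 393 CPM against 9964 to 25754 CPM. Marker sums of other cell types in mitochondria and whole muscle were, in CPM, 303 to 468 and 2262 to 7751 for the 6 fibroblast genes, 282 to 497 and 415 to 637 for the 6 endothelial genes, and 194 to 406 and 269 to 398 for the 6 smooth-muscle genes. They were 243 to 413 and 35.1 to 62.5 for the 6 leukocyte genes, 70.0 to 142 and 84.5 to 148 for the 5 adipocyte genes, 84.0 to 151 and 32.4 to 136 for the 5 Schwann-cell genes, and 35.8 to 82.2 and 76.1 to 199 for the 3 erythroid genes. Most of the adipocyte sum in whole muscle was Fabp4. The other 4 averaged 11.8 CPM (Adipoq) to 29.3 CPM (Cidec) in mitochondria, and 0.0300 CPM (Lep) to 0.755 CPM (Adipoq) in whole muscle. Those 4 passed the filter on low counts only through the mitochondria libraries, so their calls as higher are not read as a result. No marker with a row was at 0 in all 6 libraries of either group, and the part of these shifts in the results on chaperones was not tested. The 13 mRNAs of the mitochondrial genome summed to 33814 to 100897 CPM in mitochondria and 59663 to 89385 CPM in whole muscle.

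In CPM, all of these chaperone transcripts but Hspb2 were lower in the mitochondria libraries, to very different degrees. Mean values in mitochondria lay in a narrow range, 9.25 CPM (Hspb3) to 24.7 CPM (Hspb2), apart from Hspa8 at 59.6 CPM. In whole muscle they ran from 19.5 CPM (Hspb2) to 587 CPM (Hspb6), so the degrees came mostly from the whole-muscle level. Odf1 and Hsf5, described below and nearly absent from whole muscle, averaged 23.2 and 17.9 CPM in mitochondria, within that range. What sets this range was not tested. Cryab and Hspb6 were lowest against whole muscle, and Hspb3 and Hsp90aa1 were lower by a much smaller factor. The mean CPM of Hspb2 was somewhat higher in mitochondria than in whole muscle. In 8 of the 9 members every mitochondria library lay below every whole-muscle library, and Hspb2 alone had overlapping groups. Of all 24679 genes that passed the filter on low counts, 6.77% lay below whole muscle in the same way and 79.5% above it, without overlap. For those 8 the whole-muscle mean was between 3.06 and 49.9 times the mitochondria mean on the CPM scale. Mitochondria libraries come from captured organelles exposed to RNase A, and whole-muscle libraries from bulk tissue. The parts of cell types, carried-over cytoplasm, RNA digestion and RNA per cell in the lower values cannot be told apart. CPM is not corrected for transcript length. Apart from the ranges of means above, the values of one gene are therefore compared between libraries and not with those of another gene.

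**Figure D1:**
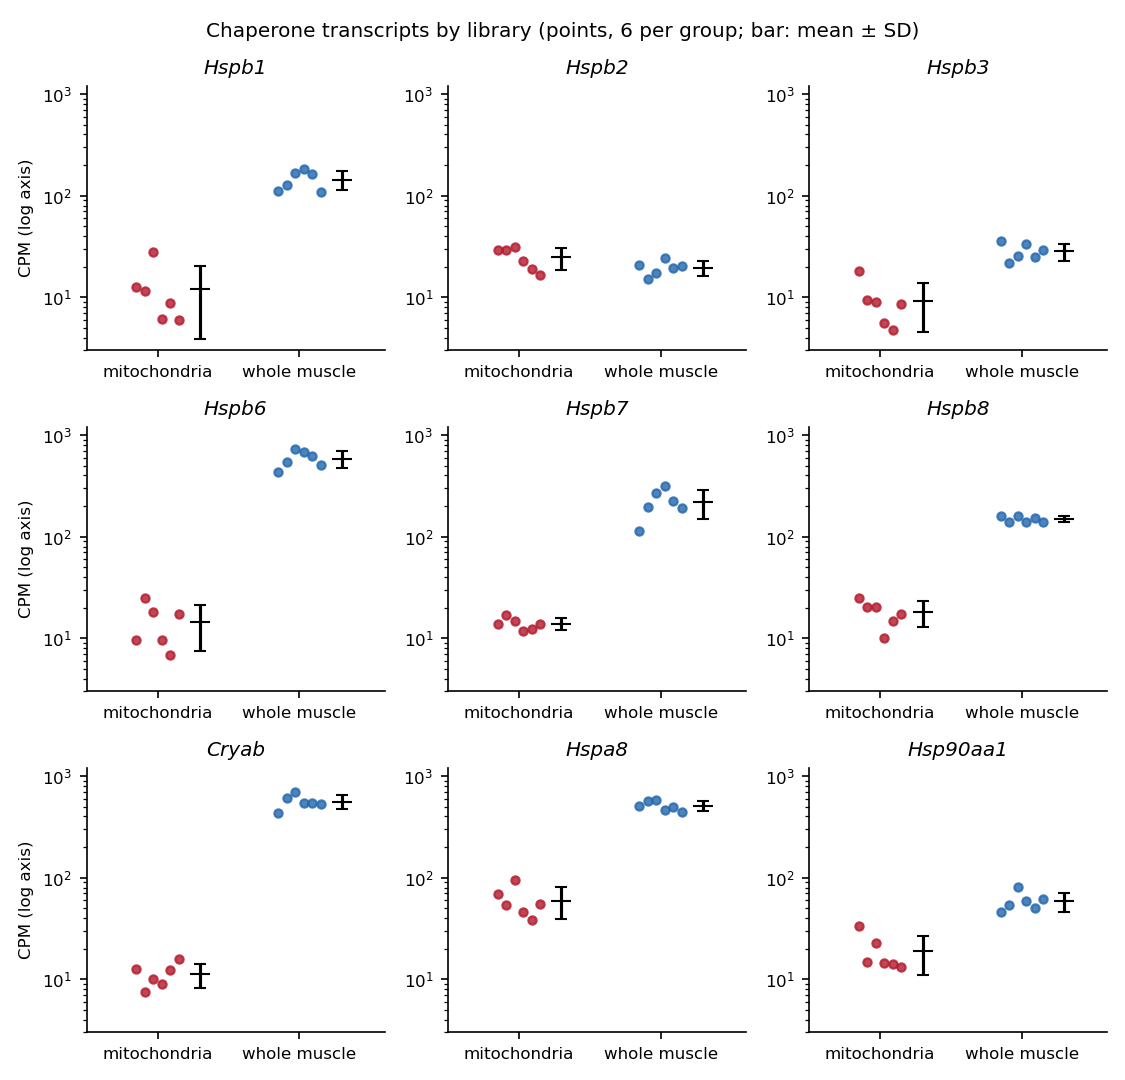
CPM on a log axis for each of the 9 genes, with mitochondria on the left and whole muscle on the right; points are libraries, 6 per group, and bars give the mean ± SD. The groups are apart in 8 panels and overlap for Hspb2; mitochondria lay below whole muscle without overlap in 6.77% of all tested genes.

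Cryab encodes alpha B-crystallin, a small heat shock protein that binds desmin and titin. Its lowest, median and highest values were 7.41, 11.2 and 15.97 CPM in mitochondria, against 431, 539 and 698 CPM in whole muscle. It averaged 11.2 ± 3.03 CPM in mitochondria and 559 ± 89.3 CPM in whole muscle (SD, n = 6 each), so the groups lay far apart. In the edgeR quasi-likelihood fit over all genes with TMM scaling, its log2 fold change was -7.72 ± 0.20 (SE; adjusted p = 9.45e-25). That placed it at percentile 0.170 of all tested genes ranked by fold change, close to the lower end.

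Hspb6, also called HSP20, is a partner of Cryab in mixed oligomers and is known from smooth and cardiac muscle as a target of cyclic-nucleotide-dependent kinases. It had 6.78, 13.5 and 24.9 CPM as lowest, median and highest value in mitochondria, against 429.5, 585 and 725 CPM in whole muscle. The fold change was close to that of Cryab, with a log2 value of -7.43 ± 0.21 (SE; edgeR adjusted p = 9.39e-24). Hspb1, the classical HSP27 that binds actin filaments, spanned 5.99 to 28.1 CPM around a median of 10.1 CPM in mitochondria, and 109.7 to 182 CPM around a median of 146 CPM in whole muscle. Its log2 fold change was -5.80 ± 0.20 (SE; edgeR adjusted p = 3.99e-22). Replicate 3 of mitochondria had the highest Hspb1 value, with 25 counts, and still lay well under the lowest whole-muscle library.

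Hspb7, the cardiovascular heat shock protein that binds filamin C, had 11.8, 13.9 and 16.8 CPM as lowest, median and highest value in mitochondria, against 115, 209 and 315 CPM in whole muscle. Its coefficient of variation was 13.2% in mitochondria, where counting error alone gives about 23.6%, and 31.8% in whole muscle, where counting error gives about 1.28%. The log2 fold change was -6.05 ± 0.21 (SE; edgeR adjusted p = 1.03e-21). Hspb8 works with the co-chaperone Bag3 in the removal of damaged filamin. It had 10.1, 18.8 and 25.0 CPM in mitochondria, against 138, 147 and 160 CPM in whole muscle, where it varied least of the 9, by a coefficient of variation of 7.01%. Its log2 fold change was -5.20 ± 0.13 (SE; edgeR adjusted p = 5.23e-25).

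Hspb2 and Hspb3 encode proteins that form a complex with each other in muscle. Hspb2 had 29.2, 28.98, 31.5, 22.96, 18.99 and 16.6 CPM in mitochondria replicates 1 to 6, against 20.8, 15.1, 17.3, 24.2, 19.4 and 20.1 CPM in the whole muscle of the same rats. Mitochondria were the lower of the pair in 3 of 6 rats, and the groups overlapped. Its mean was 24.7 ± 6.09 CPM in mitochondria and 19.5 ± 3.10 CPM in whole muscle (SD, n = 6 each). When CPM was computed over nuclear counts alone, mitochondria spanned 29.4 to 47.3 and whole muscle 22.3 to 37.7, and mitochondria were lower in 1 of 6 rats. Hspb3 had 4.75, 8.83 and 18.1 CPM as lowest, median and highest value in mitochondria, against 21.8, 27.2 and 35.7 CPM in whole muscle. Its groups did not overlap, and its log2 fold change with TMM scaling was -3.82 ± 0.17 (SE; edgeR adjusted p = 6.11e-19).

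Hspa8, the constitutive HSC70, had 435 counts over the 6 mitochondria libraries. It had 38.0, 54.2 and 95.7 CPM as lowest, median and highest value there, against 444, 502 and 582 CPM in whole muscle. Every mitochondria library was below every whole-muscle library, with a log2 fold change of -5.25 ± 0.15 (SE; edgeR adjusted p = 8.34e-24). Hsp90aa1, the stress-inducible cytosolic HSP90, also serves myosin folding during muscle development. It had 13.3, 14.7 and 33.3 CPM in mitochondria, against 46.0, 56.9 and 81.0 CPM in whole muscle. The whole-muscle mean was 3.12 times the mitochondria mean in CPM, and the log2 fold change with TMM scaling was -3.84 ± 0.16 (SE; edgeR adjusted p = 8.86e-20).

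Some members share bases with other genes. In the RefSeq gene table of GRCr8 Hspb2 overlaps Cryab, Hspb6 overlaps Lin37, Hspa8 overlaps Snord14a and LOC120094548, and Hsp90aa1 overlaps LOC102549239. The reads were counted on another build, mRatBN7.2, and overlaps in the annotation used there were not checked. No strand setting or handling of reads with several matches is given in the labels, so how reads shared with an overlapping gene, or with the processed pseudogenes known for Hspa8 and Hsp90aa1, were assigned is uncertain.

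All 9 members passed the filter on low counts, and with TMM scaling all 9 were lower in mitochondria at an adjusted p under 0.05 and none was higher. Of all 24679 genes tested, 30.3% were called lower and 63% higher. The median log2 fold change was -5.25 for the members and 2.51 for all tested genes. The same fit called all 13 mRNAs of the mitochondrial genome lower in mitochondria, with a median of -1.92, past the -1.78 of Hspb2. The direction of a small fold change depended on the scaling, because the median over all genes moved to 4.61 with total counts alone and to 4.81 with the counts of the mitochondrial genome as library size. With total counts 8 members were lower, against 9.03% of genes called lower and 84.3% called higher. With mitochondrial genome counts 8 were lower, against 4.4% called lower and 80.7% called higher among 24316 nuclear genes. The medians of the members were then -3.13 and -2.78.

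The member that left the list was Hspb2 in both cases. Its log2 fold change was -1.78 ± 0.14 with TMM scaling (SE; edgeR adjusted p = 1.61e-13), 0.31 with total counts (adjusted p = 0.118) and 0.66 with mitochondrial genome counts (adjusted p = 0.232). Under TMM scaling it stood at percentile 14.9 of all tested genes, still below the median gene. Cryab kept values of -5.65 with total counts and -5.52 with mitochondrial genome counts, and Hspb6 of -5.34 and -5.09. Hsp90aa1 and Hspb3 were the least reduced of the other 8 under every one of these scalings, with -1.74 each for total counts, and -1.30 and -1.41 for mitochondrial genome counts.

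**Figure D2:**
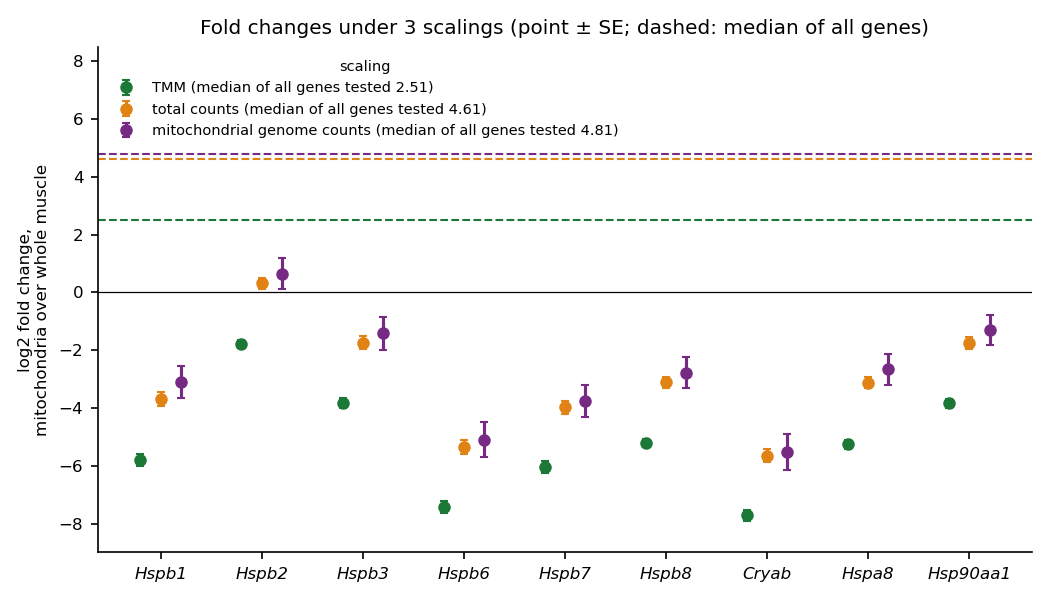
Log2 fold change of mitochondria over whole muscle for each gene with its SE, under TMM, total counts and mitochondrial genome counts as scaling; dashed lines give the median of all tested genes. Under total counts Cryab (-5.65) is lowest and Hspb2 (0.31) lies above 0.

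Ratios of 2 transcripts counted in the same library do not depend on scaling. For 6 of them the groups were compared by a two-sided exact permutation test over libraries, whose smallest possible p is 0.0021645. Each difference closely restates the gap between the total-count fold changes of its 2 genes, from the same counts. The small p-values therefore add no support beyond those fold changes. Log2 ratios were taken with 0.5 added to each count. The ratio of Cryab to Hspa8, a small heat shock protein against the HSP70 to which it passes clients, averaged -2.35 ± 0.60 in mitochondria and 0.13 ± 0.19 in whole muscle (SD, n = 6 each). It was lower in mitochondria by a difference of -2.47 (exact permutation p = 0.0021645, adjusted over 6 ratios 0.002597). Hspb2 to Cryab was reversed, at 1.12 ± 0.67 in mitochondria and -4.84 ± 0.41 in whole muscle, a difference of 5.96 with the same p. In linear terms there were 2.36 Hspb2 counts per Cryab count in mitochondria and 0.0360 in whole muscle. These 2 genes overlap in the RefSeq gene table of GRCr8, and overlap in the annotation used for counting was not checked.

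Hspb3 to Hspb2, the partners of one complex, averaged -1.47 ± 0.55 in mitochondria and 0.53 ± 0.14 in whole muscle. The groups did not overlap, and the difference was -2.01 (exact permutation p = 0.0021645). Hspb1 to Hspb6 averaged -0.31 ± 0.88 in mitochondria and -2.04 ± 0.13 in whole muscle, a difference of 1.73 with the same p. Hsp90aa1 to Hsp90ab1, the inducible against the constitutive HSP90, averaged -0.61 ± 0.39 in mitochondria and -3.48 ± 0.34 in whole muscle, a difference of 2.87 with the same p. Hsp90ab1 had 27.8 ± 5.68 CPM in mitochondria and 646 ± 56.0 CPM in whole muscle.

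Hspb8 to Bag3, the pair that acts in chaperone-assisted selective autophagy, shifted least. The ratio averaged -0.65 ± 0.42 in mitochondria and 0.39 ± 0.31 in whole muscle, a difference of -1.04 (exact permutation p = 0.004329). Its groups overlapped slightly, with a highest value of -0.10 in mitochondria and a lowest of -0.13 in whole muscle. In each of the 6 ratios the 2 libraries of a rat differed in the same direction in 6 of 6 rats. An exact sign-flip test over rats gave 0.03125 for each, the smallest p it can give.

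**Figure D3:**
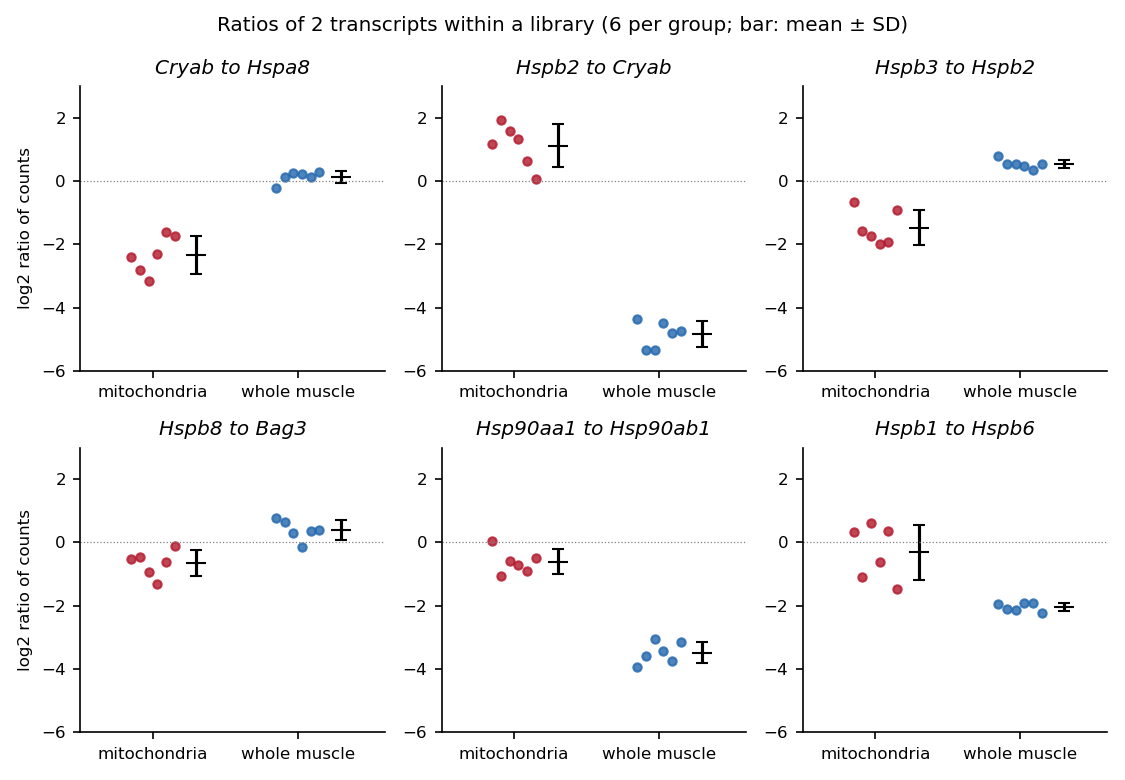
Log2 ratio of counts of 2 genes within each library, with mitochondria on the left and whole muscle on the right; points are libraries, 6 per group, and bars give the mean ± SD. Groups are apart in 5 panels, and overlap slightly for Hspb8 to Bag3.

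The other genes of the chaperone system were read from 9 lists, described by counts beside the shares of all genes given above. Counts are given with TMM scaling first, then with total counts, then with mitochondrial genome counts as library size, because the splits differed widely between them. The other small heat shock genes had higher values in mitochondria than in whole muscle. Of these 4, Odf1, Hspb9 and Cryaa had almost no counts in whole muscle and passed the filter only through the mitochondria libraries, so their calls are not counted here. With counts thinned to the smallest library, 1 of the 4 was still tested. Odf1, a protein of the sperm tail, had 179 counts over the 6 mitochondria libraries and 0 over the 6 whole-muscle libraries, at least 1298-fold higher in CPM taking 3 counts in the whole group as the floor. Hspb9, known from testis, had 54 counts against 0, at least 391-fold higher on the same floor. Cryaa, the lens crystallin, had 69 counts in mitochondria and 3 in whole muscle, a ratio of 500 in CPM (95% counting interval 164 to 2485). Hspb11, a part of the ciliary transport machinery, averaged 16.5 ± 3.74 CPM in mitochondria and 1.01 ± 0.261 CPM in whole muscle (SD, n = 6 each). Its log2 fold change was 1.91 (edgeR adjusted p = 2.36e-09). With a lowest whole-muscle value of 0.732 CPM, Hspb11 reached the filter in all 6 libraries of a group only in mitochondria. Its call as higher is therefore not read as a result either. Hspb9 and Cryaa were named after their values were seen, to complete the list.

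The HSP70 and HSP110 list had 11 of its 13 genes in the table; 8 were lower, 2 higher and 1 not called, with a median of -1.66. Hspa5, the HSP70 of the endoplasmic reticulum, had 36.0 ± 10.8 CPM in mitochondria and 139 ± 15.2 CPM in whole muscle. Hspa4, an exchange factor of HSP70, had 41.6 ± 6.34 CPM in mitochondria and 85.5 ± 12.5 CPM in whole muscle. With total counts the same list split into 3 lower and 6 higher, and with mitochondrial genome counts into 1 lower and 5 higher, with a median of 0.91. The J-domain proteins, which bring clients to HSP70, were lower in 26 of 26, with a median of -2.07, but 10 were lower and 10 higher with total counts. With mitochondrial genome counts 5 were lower, 9 higher and 12 not called, with a median of 0.42. Among them Dnajb5 had 33.6 ± 6.64 CPM in mitochondria and 173 ± 29.1 CPM in whole muscle. Dnaja4 had 25.7 ± 8.78 CPM in mitochondria and 113 ± 26.7 CPM in whole muscle, and Dnaja2 had a log2 fold change of -4.50.

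Hsp90ab1 and the HSP90 co-chaperones were lower in 19 of 20 and higher in 1, with a median of -3.06; with total counts 11 were lower and 5 higher, and with mitochondrial genome counts 7 and 5. Hsp90ab1 changed most, by -6.66 on the log2 scale. Smyd1, the methyltransferase of muscle that works with HSP90 and Unc45b on myosin, had 43.1 ± 6.08 CPM in mitochondria and 393 ± 33.3 CPM in whole muscle. BAG proteins and other exchange factors were lower in 6 of 8 and higher in 1, with a median of -2.28, then 3 lower and 3 higher with total counts, and 2 lower and 3 higher with mitochondrial genome counts. Bag3 had 28.3 ± 7.94 CPM in mitochondria and 115 ± 23.7 CPM in whole muscle, and Bag6 had 61.6 ± 14.3 CPM against 154 ± 15.8 CPM. The cytosolic chaperonin and prefoldin, which fold actin and tubulin, were lower in 13 of 13 tested, with a median of -3.005, then 11 lower and 2 higher with total counts. With mitochondrial genome counts 2 were lower, 1 higher and 10 not called, with a median of -0.56. Log2 fold changes were -3.04 for Cct5 and -3.62 for Tcp1, both subunits of the chaperonin ring.

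The heat shock factors and their regulator Hsbp1 were lower in 3 of 5 and higher in 1, with a median of -1.99, and 1 lower and 2 higher under both other scalings. Hsf1, the main factor of the heat shock response, overlapped between groups, at 29.2 ± 7.30 CPM in mitochondria and 26.3 ± 3.36 CPM in whole muscle. Its log2 fold change was -1.99 with TMM scaling and 0.11 with total counts. Hsbp1 was lower by a log2 fold change of -4.02. Hsf5 had 17.9 ± 2.93 CPM in mitochondria and 0.0921 ± 0.105 CPM in whole muscle. It passed the filter only through the mitochondria libraries, so its call as higher, counted above under each scaling, is not read as a result. Clients and partners of the small heat shock proteins in the sarcomere and filaments were lower in 6 of 6 under all 3 scalings, with medians of -6.25, -4.13 and -3.73. Log2 fold changes were -7.90 for Des, which encodes desmin, -7.61 for Ttn, the giant spring of the sarcomere, and -6.30 for Flnc, the client that Hspb7 and the Hspb8 and Bag3 complex share.

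Chaperones and proteases that work inside mitochondria, but are encoded in the nucleus, gave calls that depended on the scaling. Of 14 such genes 13 were lower with TMM scaling, none was higher and 1 was not called, with a median of -2.81; with total counts 10 were lower and 3 higher. With mitochondrial genome counts 5 were lower, 2 higher and 7 not called, with a median of -0.43. Hspa9, the mitochondrial HSP70, had 35.05 ± 11.04 CPM in mitochondria and 249 ± 23.98 CPM in whole muscle. Hspe1, the small partner of HSP60, had 7.64 ± 2.94 CPM in mitochondria and 65.2 ± 5.33 CPM in whole muscle, and Lonp1, a protease of the matrix, had a log2 fold change of -2.96.

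**Figure D4:**
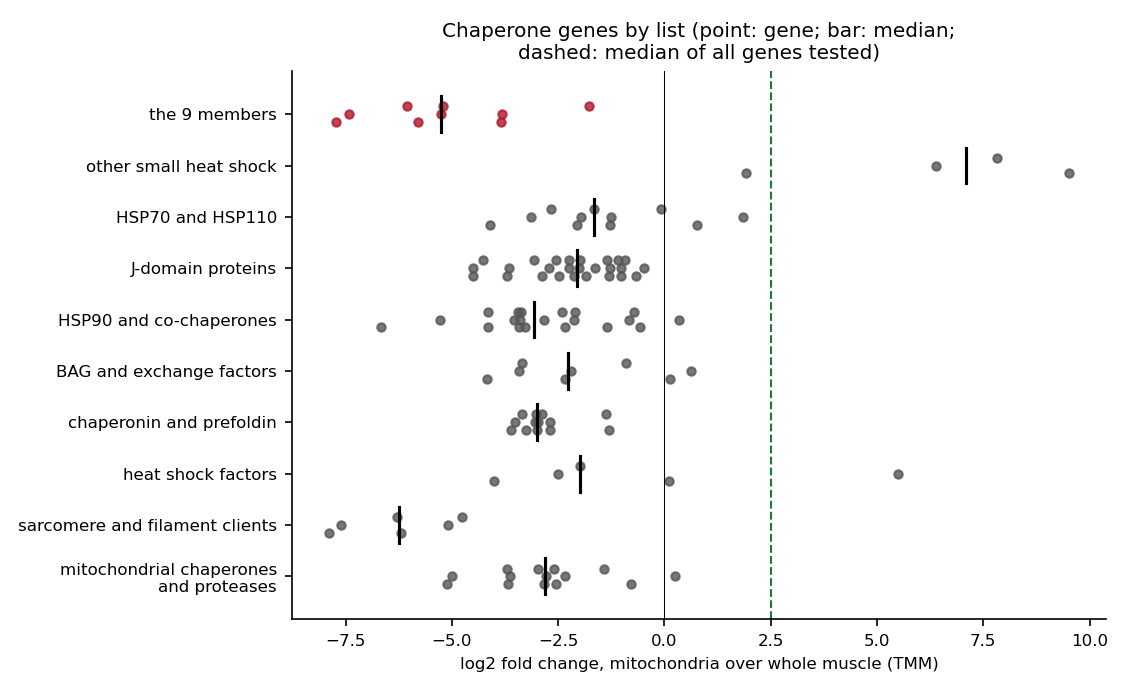
Log2 fold change of mitochondria over whole muscle with TMM scaling for the 9 members, at the top, and for 9 lists of related genes; each point is a gene, bars are medians, and the dashed line is the median of all tested genes (2.51). The members and the sarcomere and filament clients lie farthest to the left, the other small heat shock genes, 3 of which have at most 3 counts in whole muscle, to the right.

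The genes with the pattern most like a member were found by the root mean square difference of log2(CPM + 0.5), centred on each gene's mean over the 12 libraries, among 19832 named genes that passed the filter. Nearest to Cryab were Atp5f1a, a subunit of ATP synthase, at 0.31, Fhl1 at 0.35, Actn2, the alpha-actinin of the Z-disc, at 0.36, Myl3, a slow myosin light chain, at 0.37, and Myot, the Z-disc protein myotilin, at 0.38. The nearest member was Hspb6, at rank 26 with 0.59. Around Hspa8 the 5 nearest genes were Lmod3, Ugp2, Sqstm1, Ywhae and Trim72, between 0.22 and 0.23. Hspb8 came at rank 27 there, with 0.27. The measure is mostly the contrast between the 2 kinds of library, since that is far larger than the spread within either.

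The muscles of the 6 rats also differed among themselves. Hspb7 ranged 2.74-fold between whole-muscle libraries and Hspb8 1.16-fold. Cryab, Hspb6 and Hsp90aa1 were all lowest in replicate 1 and highest in replicate 3, and Hspb7 was lowest in replicate 1 and highest in replicate 4. The slow-fibre marker sum was also lowest in replicate 1, at 9964 CPM, and highest in replicate 3, at 25754 CPM. Over the 6 whole-muscle libraries Pearson's r with that sum was 0.91 for Cryab (exact permutation p = 0.0264, adjusted over 17 relations 0.1495), and Spearman's rho was 0.94 (exact permutation p = 0.0167, adjusted 0.142). For Hspb6, r was 0.87 (exact permutation p = 0.0208, adjusted 0.1495) and rho 0.94 (exact permutation p = 0.0167, adjusted 0.142). For Hsp90aa1, r was 0.90 (exact permutation p = 0.0167, adjusted 0.1495) and rho 0.66 (exact permutation p = 0.175, adjusted 0.342). For Hspb7, r was 0.77 (exact permutation p = 0.0778, adjusted 0.229) and rho 0.89 (exact permutation p = 0.0333, adjusted 0.189). For Hspb1, r was 0.63 (exact permutation p = 0.172, adjusted 0.325) and rho 0.83 (exact permutation p = 0.0583, adjusted 0.198). For Hspa8, r was 0.54 (exact permutation p = 0.271, adjusted 0.384) and rho 0.43 (exact permutation p = 0.419, adjusted 0.549). For Hspb8, r was 0.07 (exact permutation p = 0.872, adjusted 0.926) and rho 0.20 (exact permutation p = 0.714, adjusted 0.714). None of the 17 relations, which also include those of Cryab with each other member, passed the adjustment. Without the 2 libraries farthest from the median of the marker sum, r was 0.36 for Cryab, 0.57 for Hspb6, 0.25 for Hsp90aa1, 0.69 for Hspb7 and 0.49 for Hspb1, and the relations of Cryab and Hsp90aa1 rest on those libraries. Hspb2 and Hspb3 went another way, with r of -0.25 and -0.42 (exact permutation p = 0.654 and 0.411, adjusted 0.741 and 0.499) and rho of -0.31 and -0.37 (exact permutation p = 0.564 and 0.497, adjusted 0.639 and 0.604). Without the same 2 libraries their r was 0.26 and 0.32.

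**Figure D5:**
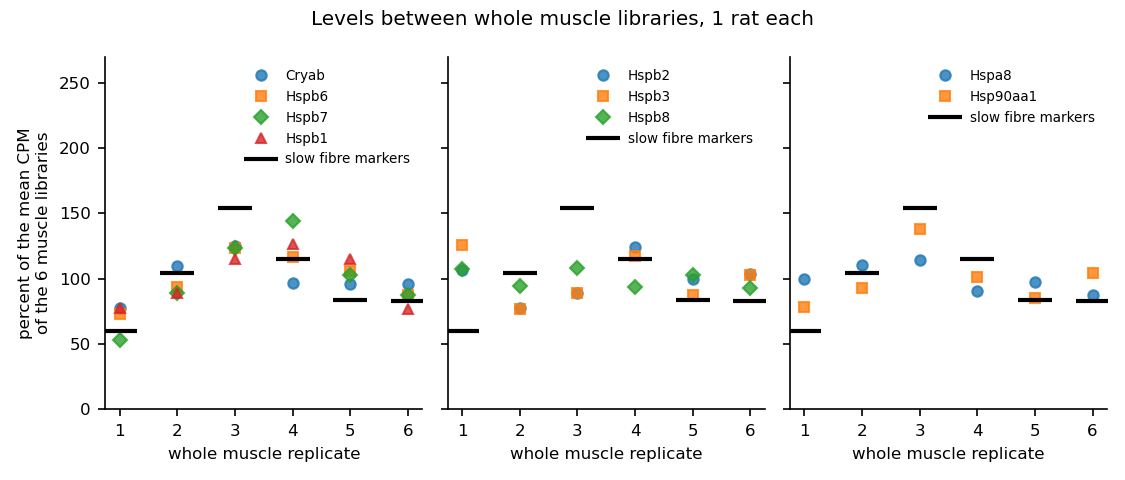
Level of each gene in the 6 whole-muscle libraries, 1 rat each, as a percentage of its mean CPM over them; black dashes give the summed slow-fibre markers on the same scale. Replicate 1 is lowest and replicate 3 highest for Cryab, Hspb6, Hsp90aa1 and the markers, while Hspb8 stays close to 100.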

How the data were processed

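The authors deposited raw read counts per gene for 12 libraries, a count table of 30560 genes; per the submitters' processing notes FastQC 0.74, cutadapt 4.6, STAR 2.7.11a, HTSeq and the build mRatBN7.2 were used. Groups came from the titles. CPM was computed here from all gene counts of a library. Counts were tested with edgeR 4.0.16 in R 4.3.3 (TMM, filterByExpr with a minimum count of 10, quasi-likelihood test, group only, Benjamini-Hochberg adjustment over all tested genes, threshold 0.05), and log2 fold changes are mitochondria over whole muscle. Each SE was derived from the fold change and its F statistic. The fit was tested on data simulated at whole-muscle means with few genes changed. A shift of most genes, as between these groups, was not simulated. Permutation tests used SciPy 1.17.1. Ratio p-values were adjusted over 6 ratios.

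Muscle and mitochondria with one replicate number came from the same rat, per the labels. Deviations from the group means correlated between -0.0081 and 0.0202 within rats. Fits with the rat as a block, RLE factors, total counts, mitochondrial genome counts, nuclear counts alone, DESeq2 1.42.0, other filters, thinned counts and each library left out in turn were alternatives. Libraries are separate rats within a group, and intervals and floors cover counting error only.

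The members and lists, which supply both genes of every ratio, were chosen with earlier results of these data known. Named genes are the members, both genes of each ratio, in each list the 2 with the highest mean CPM and the called gene that changed most, and the 5 nearest to Cryab and to Hspa8. List genes with no row were not analysed here.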

Additional observations from a re-analysis of the deposited data

Results flagged for a closer look

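In 3 of 30 sets of 6 values examined, 1 library stood apart from the other 5 by more than Dixon's critical value for 6 samples; chance gives such a gap in about 1 in 20 sets. Hspb1 had 28.1 CPM in mitochondria replicate 3, from 25 counts (exact 95% Poisson interval 18.2 to 41.6 CPM), with a gap of 0.706 of the range. Hspb3 had 18.1 CPM in mitochondria replicate 1, from 13 counts (9.61 to 30.9 CPM), with a gap of 0.648 of the range. The log2 ratio of Cryab to Hspa8 was -0.235 in whole-muscle replicate 1, with a gap of 0.698 of the range.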

How the results depend on the processing

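Over all tested genes, TMM scaling gave 15544 genes higher and 7470 lower in mitochondria. Thinned to 720111 counts per library, these were 6752 and 3659. Fewer genes were lower with total counts (2228), with mitochondrial genome counts (1071) and with the replicate block and total counts together (2211). The replicate block alone gave 15511 higher and 7427 lower, with 9 members lower, and changed no call of a member. Hspb2 changed sign with total counts (0.31), mitochondrial genome counts (0.66) and the block with total counts (0.32), and thinned it was at -0.26 with an edgeR adjusted p of 0.303. Hsf1 changed sign under the first 3 of these too (0.11, 0.47 and 0.12), with no call. The cause was not tested. The 8 other members were lower under every alternative, and the 6 ratios kept direction and call. Depth limits the mitochondria values, where a member had 65 to 435 counts in all.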
